A study of Mus musculus with 9 samples.

Results

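The IL-1 family was followed through 9 of its ligand and receptor genes in the colon of mice with colitis-associated cancer. The members were listed by name: the ligands Il1a, Il1b, Il18 and Il33, the antagonist Il1rn, and the receptor genes Il1r1, Il1r2, Il1rap and Il1rl1. The list was made with earlier results of these data known, so it is not a blind choice. They are 9 of the 21498 gene symbols measured, and all 9 passed the filter on low values described below. RNA sequencing covered the colon of 9 male mice of the outbred ICR strain, aged 5 weeks at the start, in 3 groups of 3. Control mice received neither AOM, DSS nor antibody, and their samples are labelled normal colorectal mucosa. Mice of both other groups received 10 mg/kg of azoxymethane (AOM), a colon carcinogen, and then 3 cycles of drinking water with dextran sulfate sodium (DSS), a polymer that damages the epithelial lining (2% for 7 days, and 1.5% for 5 days in each later cycle). During the DSS cycles they were given 1.5 mg/kg of negative control IgG Ab or of anti-S100a9 Ab every 2 days. The anti-S100a9 Ab is a rabbit polyclonal antibody that neutralizes the S100a9 protein, so the RNA measured here is not its direct target. The AOM/DSS samples were taken at the end of week 18 and are labelled colorectal adenocarcinoma in both groups, although the results text of the study has colon mucosa for the anti-S100a9 Ab group. Within AOM/DSS the IgG Ab mice are the controls of the antibody, and no group received an antibody without AOM/DSS.

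IL-1α and IL-1β are inflammatory cytokines that bind the receptor IL-1R1, which signals once it has recruited the accessory protein IL-1RAP. The pathway is held back at the cell surface by the receptor antagonist encoded by Il1rn, which occupies IL-1R1 without signaling, and by the decoy receptor IL-1R2, which binds IL-1 and does not signal. IL-33, an alarmin stored in the nucleus of stromal, endothelial and epithelial cells, signals through ST2, the product of Il1rl1, with the same accessory protein, and IL-18, made at a high level by the intestinal epithelium, has receptors of its own. IL-1β and IL-18 are made as precursors that inflammasome caspases cleave, so that RNA levels do not measure the active cytokines.

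The members lie on 5 chromosomes (GENCODE M21, GRCm38), and the receptor genes Il1r2, Il1r1 and Il1rl1 are neighbours. On chromosome 1, Il1r2 (40074079 to 40125231), Il1r1 (40225080 to 40317257), Il1rl2 (40324610 to 40367562), Il1rl1 (40429570 to 40465415), Il18r1 (40465552 to 40500854) and Il18rap (40515362 to 40551705) follow each other on the plus strand with no other protein-coding gene between them. On chromosome 2, Il1a (129299610 to 129309972) and Il1b (129364570 to 129371139) are adjacent on the minus strand, and Il1rn (24336853 to 24351494) stands far from them, at the end of a row of genes for IL-36 cytokines and their relatives. Il18 is on chromosome 9 (50554827 to 50581840), Il1rap on chromosome 16 (26581704 to 26730117) and Il33 on chromosome 19 (29925114 to 29960718), all on the plus strand. RefSeq places other genes over 6 of the members: noncoding genes over Il1a (Gm14023), Il1b (Il1bos), Il1r2 (Gm16894), Il1rap (Gm20319) and Il33 (Gm41832), and the coding genes Bco2 and Tex12 over Il18. The library protocol states no strand, so reads from such overlaps cannot be told apart. Values are per gene, and the isoforms of a gene are summed, so that the membrane and the soluble form of ST2 are not separated.

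The start regions are shown for the ligands Il1a and Il1b, which are adjacent and were both higher in the IgG Ab mice, and for the start sites of Il1rl1, the member with the largest difference between groups. The sequences are the 250 bases before the start site in the strand of the gene, from RefSeq on GRCm38.p6. Capitals mark any match to 5 motifs searched on both strands: a kappaB motif (GGGA and CC with 4 bases of any kind between them), an AP-1 motif (TGANTCA), a C/EBP motif (TTGCNNAA), the TATA box (TATAAA) and a GATA motif (AGATAA). The Il1a sequence lies at chr2:129309973-129310222 (minus strand), the Il1b sequence at chr2:129371140-129371389 (minus strand), and the Il1rl1 sequences at chr1:40429320-40429569 and chr1:40439379-40439628 (plus strand).
Il1a: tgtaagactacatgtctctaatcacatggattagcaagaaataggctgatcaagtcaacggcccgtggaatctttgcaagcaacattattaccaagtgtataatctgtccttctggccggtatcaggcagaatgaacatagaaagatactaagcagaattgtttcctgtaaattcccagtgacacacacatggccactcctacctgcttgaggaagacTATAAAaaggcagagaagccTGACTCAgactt
Il1b: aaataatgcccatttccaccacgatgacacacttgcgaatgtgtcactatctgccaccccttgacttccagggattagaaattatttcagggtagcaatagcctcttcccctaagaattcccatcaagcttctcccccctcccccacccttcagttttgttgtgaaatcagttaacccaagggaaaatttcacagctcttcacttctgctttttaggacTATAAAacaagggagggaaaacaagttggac
Il1rl1, upstream start site: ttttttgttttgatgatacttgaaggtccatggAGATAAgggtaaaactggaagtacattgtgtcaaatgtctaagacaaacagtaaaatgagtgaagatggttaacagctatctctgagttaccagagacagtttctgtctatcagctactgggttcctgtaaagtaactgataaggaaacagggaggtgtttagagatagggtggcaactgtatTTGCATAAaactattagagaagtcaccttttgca
Il1rl1, downstream start site: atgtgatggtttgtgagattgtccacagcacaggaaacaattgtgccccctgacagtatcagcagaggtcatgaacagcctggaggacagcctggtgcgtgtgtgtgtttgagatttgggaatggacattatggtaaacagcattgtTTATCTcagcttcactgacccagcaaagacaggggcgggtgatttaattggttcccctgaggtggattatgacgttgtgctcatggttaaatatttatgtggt

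Positions are counted from the start site, with bases before it as negative. Il1a and Il1b both held a TATA box, at -32 and -31, and Il1a also held an AP-1 motif at -12. The upstream start region of Il1rl1 held a C/EBP motif at -34 and a GATA motif at -217, and the downstream one held a GATA motif at -103, on the other strand. RefSeq gave 14 start regions for the 9 members. In windows of 300 bases (250 before and 50 after the start site), 6 of these 14 held a TATA box, 3 a C/EBP motif, 2 a kappaB motif (Il1rn and Il1rap), 2 an AP-1 motif (Il1a and Il1rn) and 2 a GATA motif (both in Il1rl1). Over all 32851 start regions of this length, 13.6% held a TATA box, 10.8% a C/EBP motif, 20.7% a kappaB motif, 7.81% an AP-1 motif and 11.2% a GATA motif. A match is a run of letters and was not tested as a binding site.

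Levels are given in FPKM, a fragment count corrected for the length of the transcript and the depth of the library, which is meant to make genes comparable. The number of fragments behind a value is unknown, and the error given is the spread between the 3 mice. FPKM totals ranged from 308377 to 408811 per sample, and the transcripts Gapdh, Ppia and Rps18, abundant in nearly all cells, were at no more than 0.755, 0.974 and 0.391 FPKM, so that a 0 in the files is reported as a listing and not as absence. The values of some genes are thus unreliable as levels, and rankings and ratios between genes describe the listed values only. Groups were compared with limma on log2(FPKM + 0.1) for 15278 genes, those that reached 0.1 FPKM in 3 or more samples. Fold changes belong to this log scale and come out too small for low genes, SE is the standard error of the log2 fold change, and a gene is called changed at an adjusted p under 0.05 over all genes tested. In whole tissue, fewer cells of a type and less RNA per cell cannot be told apart. The markers of the intestinal epithelium were present in all samples: Epcam ranged from 584 to 890 FPKM over the 9 mice, and the sum of 7 intestinal epithelial markers from 2349 to 2979 in Control, from 2368 to 3135 in IgG Ab and from 2151 to 2651 in anti-S100a9 Ab mice.

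In normal colorectal mucosa the family was dominated by Il18 and Il1rn. Control levels were 55.3 ± 15.7 FPKM for Il18 and 17.9 ± 0.998 FPKM for Il1rn (mean ± SD, n = 3), and neither range overlapped with that of the next gene. Il1b (3.39 ± 1.55), Il33 (3.16 ± 0.471) and Il1r1 (2.84 ± 0.680) followed at levels whose ranges overlapped. Il1rap, Il1rl1, Il1r2 and Il1a, in this order, ranged from 0.0206 to 1.00 FPKM over the Control mice, and each overlapped with its neighbour. In the IgG Ab mice Il18 and Il1rn were still the most abundant members and stood apart from the rest. Il1rl1, which ranked below Il1rap in Control, stood beside Il1b, Il33 and Il1r1 in a run of 4 genes whose neighbours overlapped, from 14.7 ± 5.49 down to 7.44 ± 1.71 FPKM. In the anti-S100a9 Ab mice Il1rl1 was below Il33 without overlap, at 1.09 ± 0.211 against 3.63 ± 1.28 FPKM, and Il1r2 was the lowest member at 0.377 ± 0.0842 FPKM.

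**Figure D1:**
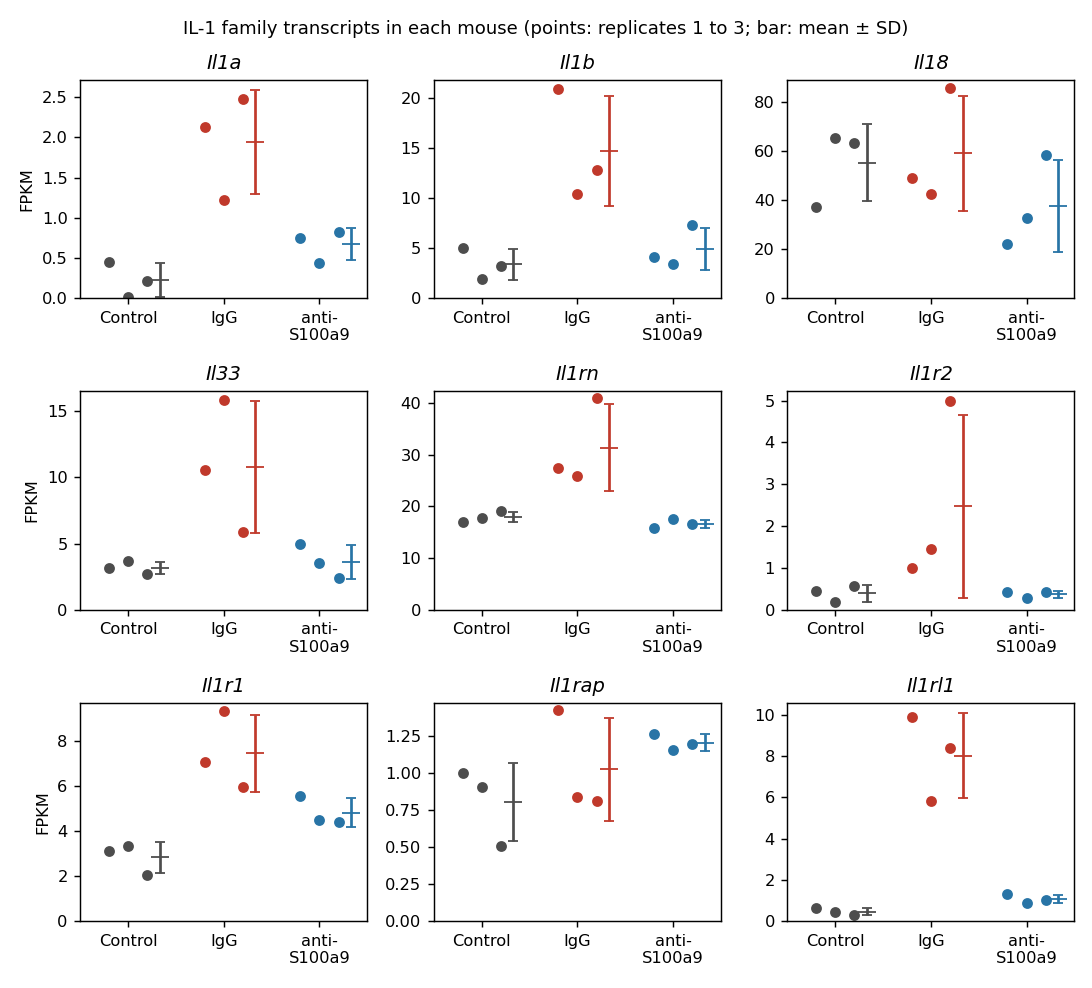
FPKM of the 9 members in each mouse by group (Control, AOM/DSS with IgG Ab, AOM/DSS with anti-S100a9 Ab), with 1 point per mouse and a bar for the mean ± SD (n = 3); each panel has its own linear axis starting at 0. For Il1a, Il1b, Il33, Il1rn, Il1r2, Il1r1 and Il1rl1 every IgG Ab mouse lies above every Control and every anti-S100a9 Ab mouse, whereas the groups overlap for Il18.

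The first comparison asks what AOM/DSS with IgG Ab changed against normal mucosa. Of the 9 members, 7 were called higher in the IgG Ab mice (Il1a, Il1b, Il33, Il1rn, Il1r2, Il1r1 and Il1rl1) and none was called lower. Among all 15278 genes tested, 8.18% were called higher and 3.01% lower. The same 7 members had no overlap between the groups, which was the case, in this direction, for 20.7% of all genes. By the criteria of the study, a change of more than 2-fold with p under 0.05 before adjustment, 6 members (all of the 7 but Il1rn) were higher, against 8.43% of all genes. The median log2 fold change was 1.63 over the members and 0.09 over all genes tested.

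The second comparison asks what the anti-S100a9 Ab changed within AOM/DSS. With the anti-S100a9 Ab, 5 members were called lower (Il1b, Il33, Il1rn, Il1r2 and Il1rl1) and none was called higher, against 14.4% of all genes called lower and 6.72% called higher. Values were lower without overlap in 7 members, the 5 just named with Il1a and Il1r1, and in 28.5% of all genes. The study's thresholds also gave 5 members, Il1a, Il1b, Il33, Il1r2 and Il1rl1, beside 8.38% of all genes. The median log2 fold change was -1.39 over the members and -0.06 over all genes. The IgG Ab mice serve in both comparisons, so a high value in them enters both with opposite sign.

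The third comparison sets the anti-S100a9 Ab mice against the Control mice. No member was called, and only 2 of all genes tested were (0.0131%). At an unadjusted p under 0.05 there were 3 members, Il1a, Il1r1 and Il1rl1, all higher, beside 16.0% of all genes. Il1a and Il1rl1 also passed the study's thresholds, which 2.28% of all genes did in this direction. Il1r1, Il1rl1 and Il1rap were higher without overlap, as were 17.3% of all genes. The median log2 fold change was 0.56 over the members and 0.04 over all genes.

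**Figure D2:**
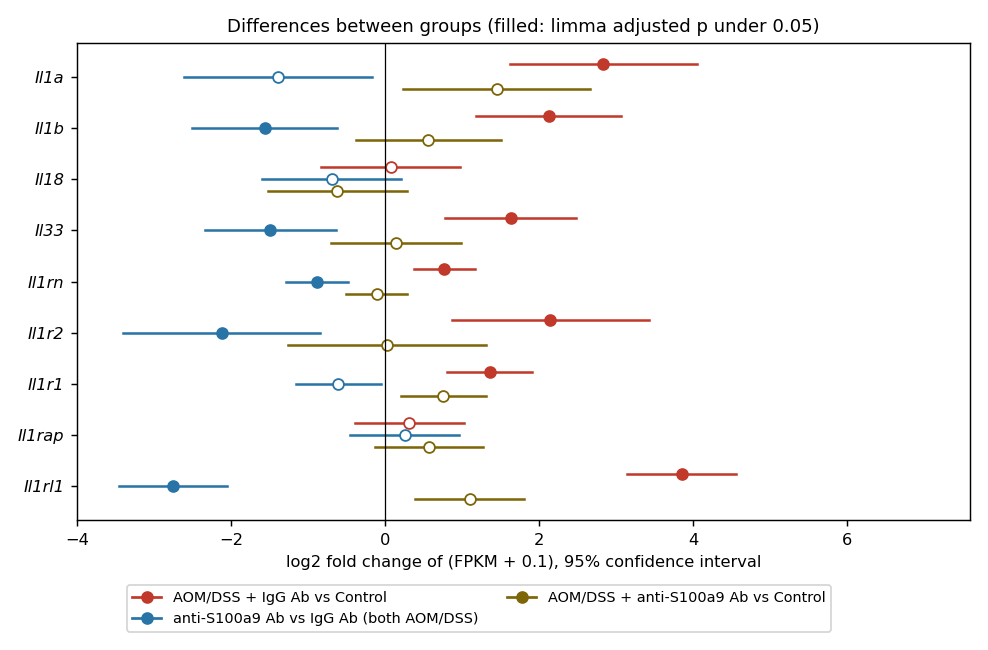
Log2 fold change of FPKM + 0.1 for each member in the 3 comparisons, with the 95% confidence interval of the limma fit to all 9 mice; filled points have an adjusted p under 0.05. For 7 members, all but Il18 and Il1rap, the interval of IgG Ab against Control lies to the right of 0 and that of anti-S100a9 Ab against IgG Ab to the left, and Il1rl1 is the farthest from 0 in both.

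Among the ligands of IL-1R1, Il1a was the scarcer. It was measured at 0.449, 0.0206 and 0.215 FPKM in the Control mice, at 2.13, 1.22 and 2.47 in the IgG Ab mice and at 0.743, 0.444 and 0.824 in the anti-S100a9 Ab mice. The IgG Ab mice were above all others, and the anti-S100a9 Ab mice overlapped with Control only in that 1 of them, replicate 2, was just below Control replicate 1. Il1a rose 7.14-fold in IgG Ab against Control (log2 fold change 2.84, SE 0.54, adjusted p = 0.014), a call made in all 9 fits that left out a mouse. Its size was less certain, with log2 fold changes of 2.24 without Control replicate 2, the lowest mouse, 1.25 with a pseudocount of 1 and 3.67 with one of 0.01. It was 2.62-fold lower with anti-S100a9 Ab (log2 fold change -1.39, adjusted p = 0.094), which did not pass the test with all mice but did without Control replicate 2 (adjusted p = 0.046, range over the fits without a mouse 0.046 to 0.24). With all mice it also passed with a pseudocount of 1 (adjusted p = 0.026) and in a fit of the 2 groups alone (0.041), in a range over the other settings from 0.026 to 0.23. Against Control it was 2.73-fold higher with anti-S100a9 Ab (adjusted p = 0.30).

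Il1b encodes the IL-1 ligand whose precursor the inflammasome caspases cleave, and it was more abundant than Il1a in every mouse. It was measured at 4.99, 1.90 and 3.27 FPKM in the Control mice, at 20.9, 10.4 and 12.8 in the IgG Ab mice and at 4.13, 3.42 and 7.37 in the anti-S100a9 Ab mice. IgG Ab replicate 1 was the highest, and the anti-S100a9 Ab and Control mice overlapped. Il1b rose 4.37-fold in IgG Ab against Control (log2 fold change 2.13, SE 0.42, adjusted p = 0.015) and fell 2.95-fold with anti-S100a9 Ab (log2 fold change -1.56, SE 0.42, adjusted p = 0.032). The difference from Control after the antibody was 0.56 on the log2 scale (95% confidence interval -0.38 to 1.51, adjusted p = 0.50). The call against Control was lost without Control replicate 2 (adjusted p = 0.055, range over the 9 fits 0.016 to 0.055). That against IgG Ab was lost without IgG Ab replicate 1 (0.087) or 3 (0.068) and without anti-S100a9 Ab replicate 1 (0.10) or 2 (0.11), in a range of adjusted p from 0.031 to 0.11.

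Il33, the ligand of ST2, was measured at 3.13, 3.65 and 2.71 FPKM in the Control mice, at 10.6, 15.8 and 5.87 in the IgG Ab mice and at 4.96, 3.52 and 2.40 in the anti-S100a9 Ab mice. Its IgG Ab mice were spread more widely than the Control mice, with replicate 2 the highest and replicate 3 the lowest, and all of them were above the other groups. Il33 rose 3.10-fold in IgG Ab against Control (log2 fold change 1.63, SE 0.37, adjusted p = 0.028) and fell 2.81-fold with anti-S100a9 Ab (log2 fold change -1.49, SE 0.37, adjusted p = 0.027). The anti-S100a9 Ab mice overlapped with Control, at a log2 difference of 0.14 (95% confidence interval -0.71 to 0.99, adjusted p = 0.87). The call against Control was lost without Control replicate 1, 2 or 3 or IgG Ab replicate 1 (adjusted p = 0.079, 0.070, 0.062 and 0.070, range over the 9 fits 0.015 to 0.079). It was also lost in a fit of the 2 groups alone (adjusted p = 0.059, range over the other settings 0.015 to 0.059). The call against IgG Ab was lost without IgG Ab replicate 1 or 2 and without anti-S100a9 Ab replicate 2 or 3 (adjusted p = 0.068, 0.052, 0.084 and 0.083, range 0.020 to 0.084).

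Il18, the most abundant member in all 3 groups, was not called in any comparison. It was measured at 37.2, 65.3 and 63.3 FPKM in the Control mice, at 49.0, 42.5 and 85.8 in the IgG Ab mice and at 22.1, 32.6 and 58.5 in the anti-S100a9 Ab mice. All groups overlapped. The log2 difference of IgG Ab from Control was 0.07 (95% confidence interval -0.83 to 0.97, adjusted p = 0.92), and its sign turned to -0.035 with median-of-ratios scaling and to -0.0043 with quantile normalization. Anti-S100a9 Ab differed from IgG Ab by -0.69 (adjusted p = 0.22) and from Control by -0.62 (adjusted p = 0.44).

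Il1rn, the antagonist, was measured at 17.1, 17.7 and 19.0 FPKM in the Control mice, at 27.3, 25.8 and 41.0 in the IgG Ab mice and at 15.9, 17.5 and 16.5 in the anti-S100a9 Ab mice. The Control and anti-S100a9 Ab mice lay close together and overlapped, and IgG Ab replicate 3 was the highest. Il1rn rose 1.71-fold in IgG Ab against Control (log2 fold change 0.77, SE 0.18, adjusted p = 0.028), the smallest of the 7 called differences, and fell 1.84-fold with anti-S100a9 Ab (log2 fold change -0.88, SE 0.18, adjusted p = 0.015). It ended at a log2 difference of -0.11 from Control (95% confidence interval -0.51 to 0.29, adjusted p = 0.78). The call against Control was lost without Control replicate 1 (adjusted p = 0.085) or 2 (0.092) or anti-S100a9 Ab replicate 1 (0.050), in a range over the 9 fits from 0.019 to 0.092. It was also lost with median-of-ratios scaling (adjusted p = 0.066), quantile normalization (0.050) and a fit of the 2 groups alone (0.089), in a range over these alternatives from 0.010 to 0.089. The call against IgG Ab was lost without anti-S100a9 Ab replicate 1 (0.059) or 2 (0.055), in a range from 0.011 to 0.059.

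Il1r2, the decoy receptor, had the most uneven IgG Ab group. It was measured at 0.439, 0.180 and 0.558 FPKM in the Control mice, at 0.989, 1.46 and 4.98 in the IgG Ab mice and at 0.426, 0.279 and 0.424 in the anti-S100a9 Ab mice. IgG Ab replicate 3 was far above the other 2 mice of its group, and the anti-S100a9 Ab mice lay within the range of the Control mice. Il1r2 rose 4.43-fold in IgG Ab against Control (log2 fold change 2.15, SE 0.56, adjusted p = 0.043) and fell 4.35-fold with anti-S100a9 Ab (log2 fold change -2.12, SE 0.56, adjusted p = 0.032). Without IgG Ab replicate 3 the log2 fold changes were 1.49 (adjusted p = 0.070) and -1.47 (adjusted p = 0.062), and neither was called. The call against Control held in only 2 of the 9 fits without a mouse, those without IgG Ab replicate 1 or 2 (adjusted p from 0.030 to 0.14 over the 9). With all mice it was lost under 5 of 10 other settings: a pseudocount of 1 (adjusted p = 0.069, log2 fold change 1.16), no filter (0.054), median-of-ratios scaling (0.059), quantile normalization (0.056) and the 2 groups alone (0.11), in a range from 0.0067 to 0.11. The call against IgG Ab was also lost without anti-S100a9 Ab replicate 1, 2 or 3 (adjusted p = 0.082, 0.10 and 0.075, range over the 9 fits 0.032 to 0.10).

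Il1r1, the signaling receptor of IL-1, was measured at 3.10, 3.36 and 2.07 FPKM in the Control mice, at 7.06, 9.30 and 5.95 in the IgG Ab mice and at 5.54, 4.48 and 4.38 in the anti-S100a9 Ab mice. The 3 groups did not overlap, with the anti-S100a9 Ab mice between the others. Il1r1 rose 2.57-fold in IgG Ab against Control (log2 fold change 1.36, SE 0.24, adjusted p = 0.011), and this call was made in all 9 fits without a mouse. Anti-S100a9 Ab differed from IgG Ab by -0.61 on the log2 scale (95% confidence interval -1.16 to -0.05, adjusted p = 0.10) and from Control by 0.76 (0.21 to 1.31, adjusted p = 0.30), neither of which passed the test.

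Il1rap, the accessory chain that the IL-1 and IL-33 receptors share, was measured at 1.00, 0.910 and 0.510 FPKM in the Control mice, at 1.43, 0.843 and 0.810 in the IgG Ab mice and at 1.27, 1.16 and 1.20 in the anti-S100a9 Ab mice. The IgG Ab mice overlapped with both other groups. The log2 difference of IgG Ab from Control was 0.32 (95% confidence interval -0.39 to 1.02, adjusted p = 0.53), that of anti-S100a9 Ab from IgG Ab 0.25 (adjusted p = 0.57) and that of anti-S100a9 Ab from Control 0.57 (adjusted p = 0.38). Il1rap was the only member whose mean was higher with anti-S100a9 Ab than with IgG Ab.

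Il1rl1, the gene for ST2, differed most. It was measured at 0.651, 0.461 and 0.295 FPKM in the Control mice, at 9.89, 5.81 and 8.36 in the IgG Ab mice and at 1.32, 0.900 and 1.05 in the anti-S100a9 Ab mice. The 3 groups did not overlap, and the lowest IgG Ab mouse was well above the highest anti-S100a9 Ab mouse. Il1rl1 rose 14.4-fold in IgG Ab against Control (log2 fold change 3.85, SE 0.31, adjusted p = 0.00045) and fell 6.74-fold with anti-S100a9 Ab (log2 fold change -2.75, SE 0.31, adjusted p = 0.0029). Both calls were made in all 9 fits without a mouse and under all 10 other settings, with log2 fold changes of 2.60 and -2.09 at a pseudocount of 1. With the antibody it was 2.14-fold above Control (log2 fold change 1.10, 95% confidence interval 0.39 to 1.80, unadjusted p = 0.0066), which the adjustment over all genes left at an adjusted p of 0.30.

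The members called higher with IgG Ab kept unequal parts of their excess over Control after the antibody. As a description from the group means in FPKM, the anti-S100a9 Ab mice kept 42.6% of the IgG Ab excess for Il1r1, 25.8% for Il1a, 14.0% for Il1b, 8.22% for Il1rl1 and 6.11% for Il33. For Il1r2 and Il1rn the anti-S100a9 Ab mean was at or just under that of Control, and the values were -0.759% and -9.85%. These percentages share the IgG Ab and Control means, and differences between them were not tested.

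Ratios within a mouse compared an inhibitor or decoy with its agonist or receptor, and ST2 with its ligand. The ratios are of FPKM + 0.1, and the added 0.1 draws those with a low gene, Il1a or Il1r2, toward 1. With 3 mice against 3 the exact two-sided permutation test cannot give a p under 0.1, so none of the 12 comparisons could pass. Il1rn exceeded Il1b by 3.37, 8.92 and 5.67 times in the Control mice, by 1.31, 2.46 and 3.18 times in the IgG Ab mice and by 3.78, 4.99 and 2.22 times in the anti-S100a9 Ab mice. The antagonist was thus lower relative to Il1b in every IgG Ab mouse than in any Control mouse (difference in mean log2 ratio -1.35, exact permutation p = 0.1, adjusted p = 0.24), and the anti-S100a9 Ab mice overlapped with both groups. The mean log2 ratio of Il1rn to Il1a was 6.03 ± 1.12 in Control, 3.97 ± 0.336 in IgG Ab and 4.47 ± 0.467 in anti-S100a9 Ab mice (SD, n = 3), again without overlap between Control and IgG Ab (exact permutation p = 0.1, adjusted p = 0.24).

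The decoy Il1r2 was scarcer than the signaling receptor Il1r1 in every mouse. The ratio of Il1r2 to Il1r1, again of FPKM + 0.1, was 0.169, 0.0809 and 0.303 in the Control mice, 0.152, 0.166 and 0.840 in the IgG Ab mice and 0.0933, 0.0829 and 0.117 in the anti-S100a9 Ab mice. The anti-S100a9 Ab mice were below all IgG Ab mice (difference in mean log2 ratio -1.52, exact permutation p = 0.1, adjusted p = 0.24). The groups of the other 2 comparisons overlapped, and the difference of IgG Ab from Control, 0.79, turned to -0.016 without IgG Ab replicate 3. The ratio of Il1rl1 to Il33 stood at 0.232, 0.149 and 0.141 in the Control mice, at 0.938, 0.371 and 1.42 in the IgG Ab mice and at 0.280, 0.276 and 0.462 in the anti-S100a9 Ab mice. Both AOM/DSS groups were above Control without overlap (differences in mean log2 ratio 2.22 and 0.96, exact permutation p = 0.1 and adjusted p = 0.24 for each).

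**Figure D3:**
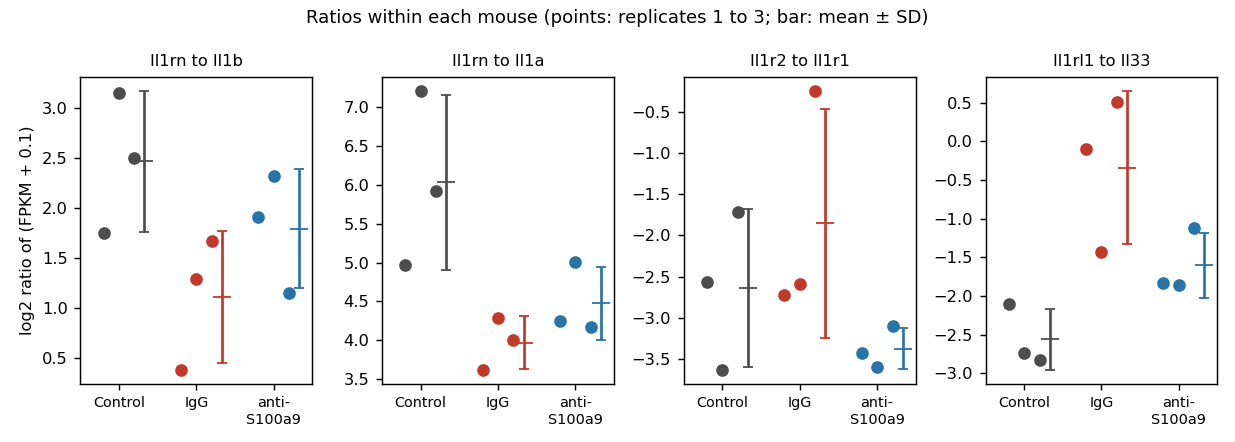
Log2 ratio of FPKM + 0.1 of pairs of members within each mouse by group, with 1 point per mouse and a bar for the mean ± SD (n = 3). The ratio of the antagonist Il1rn to either IL-1 ligand is lower in all IgG Ab than in all Control mice, and the ratio of Il1rl1 to Il33 is higher.

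The other ligands and binding proteins of the family add the IL-36 cytokines, which are known from squamous epithelia and inflamed mucosa. Of 6 listed genes 4 were tested. Of these, 2 were called higher in IgG Ab against Control and lower with anti-S100a9 Ab, beside 8.18% and 14.4% of all genes. Il1f9, the gene for IL-36γ, was listed at 0.0225, 0 and 0 FPKM in the Control mice, at 2.12, 0.938 and 1.23 in the IgG Ab mice and at 0.123, 0.166 and 0.0434 in the anti-S100a9 Ab mice (adjusted p = 0.00089 and 0.0044). Il1f6, the gene for IL-36α, was listed at 0 in all Control and anti-S100a9 Ab mice and at 0.245, 0.204 and 0.147 FPKM in the IgG Ab mice (adjusted p = 0.0073 and 0.0082). Neither gene would have passed the filter without the IgG Ab mice. Their p-values thus lean on the group in which they are high and are given as a description. Il1f10 (adjusted p = 0.31 and 0.66) and Il18bp, the soluble inhibitor of IL-18 (0.81 and 0.19), were not called. Il1f5, listed at 0 in all mice, and Il1f8, listed above 0 in 3 AOM/DSS mice at 0.310 FPKM at most, did not pass the filter. Il1f9, Il1f6 and Il1rn belong to the same row of genes on chromosome 2.

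Among 4 other tested receptors of the family, 1 was called in IgG Ab against Control, beside 8.18% of all genes called higher and 3.01% lower. This was Il18rap, the accessory chain of the IL-18 receptor. It was measured at 0.497, 0.405 and 0.351 FPKM in the Control mice, at 0.882, 0.844 and 1.41 in the IgG Ab mice and at 0.701, 0.409 and 0.659 in the anti-S100a9 Ab mice, and it rose in IgG Ab against Control (log2 fold change 1.12, SE 0.30, adjusted p = 0.045). Il1rl2, the IL-36 receptor, was higher in all IgG Ab than in all Control mice but was not called (log2 fold change 1.01, adjusted p = 0.060). Il18r1 (log2 fold change -0.53, adjusted p = 0.50) and Sigirr, a receptor that restrains IL-1 signaling (-0.18, adjusted p = 0.59), were not called either. None of the 4 was called for anti-S100a9 Ab against IgG Ab, where 6.72% of all genes were called higher and 14.4% lower. In the row of 6 receptor genes on chromosome 1, Il1r2, Il1r1, Il1rl1 and Il18rap were thus called higher with IgG Ab, as were 8.18% of all genes, and Il1rl2 and Il18r1 were not. Whether the genes of the row change together was not tested. Il18r1 starts after a gap of 136 bases from the end of Il1rl1. Its values, 0.351, 0.910 and 0.282 FPKM in the IgG Ab mice against 1.21, 0.380 and 0.731 in Control, overlapped where those of Il1rl1 did not. Il1rapl1 and Il1rapl2 did not pass the filter.

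Genes of inflammasomes and of the proteases that mature IL-1 were called in both directions. Of 18 tested, 2 were called higher and 2 lower in IgG Ab against Control (8.18% and 3.01% of all genes), and the median log2 fold change was -0.43 (0.09 over all genes). Nlrp6, an epithelial inflammasome sensor, fell from 31.2, 37.8 and 32.9 FPKM in Control to 2.00, 14.2 and 7.85 in IgG Ab mice (log2 fold change -2.45, SE 0.58, adjusted p = 0.030) and was at 20.1, 32.5 and 28.2 with anti-S100a9 Ab, a rise against IgG Ab (2.09, adjusted p = 0.036). Casp1, the caspase that cleaves the IL-1β and IL-18 precursors, fell from 66.5, 69.4 and 72.7 FPKM to 25.0, 52.8 and 39.5 (log2 fold change -0.89, SE 0.24, adjusted p = 0.048), and anti-S100a9 Ab mice at 46.9, 57.1 and 58.2 did not pass the test against IgG Ab (0.53, adjusted p = 0.14). Nlrp3, the sensor of the inflammasome best known in myeloid cells, was called the other way, from 0.340, 0.186 and 0.213 FPKM in Control to 0.830, 0.712 and 0.585 in IgG Ab mice (log2 fold change 1.24, SE 0.29, adjusted p = 0.030). Prtn3, a neutrophil protease, also rose (1.75, adjusted p = 0.039). With anti-S100a9 Ab, 3 of the 18 were called higher against IgG Ab (Nlrp6, Naip1 at a log2 fold change of 0.89 and Naip2 at 0.80) and 1 lower (Prtn3, -1.60, adjusted p = 0.037), where 6.72% and 14.4% of all genes were. Naip1 and Naip2 encode sensors of bacterial secretion systems.

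The intracellular signaling chain of the receptors was listed too, and whether its counts differ from the shares of all genes was not tested. Of 24 tested, 1 was called higher and 1 lower in IgG Ab against Control (8.18% and 3.01% of all genes), with a median log2 fold change of 0.19. Rela, an NF-κB subunit, rose from 21.3, 20.1 and 27.1 to 37.9, 31.0 and 35.2 FPKM (log2 fold change 0.61, SE 0.16, adjusted p = 0.043) and fell to 24.3, 19.1 and 23.2 with anti-S100a9 Ab (-0.65, adjusted p = 0.026). Tnip1, an inhibitor of NF-κB signaling, fell in IgG Ab against Control (-0.70, adjusted p = 0.019). In anti-S100a9 Ab against IgG Ab, Tab1, an adaptor of the kinase TAK1, also fell (-0.67, adjusted p = 0.042), and Peli1, a ubiquitin ligase of the pathway, rose (0.96, adjusted p = 0.020). Of the 24, 1 was thus called higher and 2 lower in that comparison, beside 6.72% and 14.4% of all genes.

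Genes that IL-1 is known to induce, many of which other cytokines also induce, had the largest median difference of the 5 pathway lists in IgG Ab against Control. Of 18 tested, 9 were called higher and none lower (8.18% and 3.01% of all genes), with a median log2 fold change of 1.77. With anti-S100a9 Ab 8 were called lower and 1, Vcam1, higher (1.30, adjusted p = 0.030), beside 14.4% and 6.72% of all genes, with a median of -1.39. Cxcl5, a neutrophil chemokine of the epithelium, went from 0.408, 0.0704 and 0.309 FPKM in Control to 36.6, 66.7 and 30.8 in IgG Ab and 4.95, 3.34 and 1.97 in anti-S100a9 Ab mice (log2 fold changes 7.01 and -3.68, adjusted p = 0.00028 and 0.0047). Lcn2, which binds bacterial siderophores, went from 1.78, 2.29 and 0.933 to 95.6, 77.7 and 176 and then 4.18, 4.30 and 2.53 FPKM (6.04 and -4.90, adjusted p = 0.00025 and 0.00098). Cxcl2 and Cxcl3, also neutrophil chemokines, were listed at 0 in all Control mice. Cxcl2 was at 5.56, 3.16 and 5.42 FPKM in IgG Ab and 0.106, 0.194 and 0.181 in anti-S100a9 Ab mice, and Cxcl3 at 1.87, 1.33 and 16.0 and at 0.0828, 0.0421 and 0.0444. Of the called genes of this list, Cxcl3, Il6 and Sele would not have passed the filter without the IgG Ab mice. The counts and medians of the list thus lean in part on the group in which these genes are high, and they are given as a description. No gene of the 5 pathway lists was called for anti-S100a9 Ab against Control, where only 0.0131% of all genes were. By the study's thresholds 6 of the 18 IL-1 induced genes were higher than in Control, beside 2.28% of all genes, and none was lower. Of the other pathway lists only Il1f10 passed these thresholds, also higher.

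**Figure D4:**
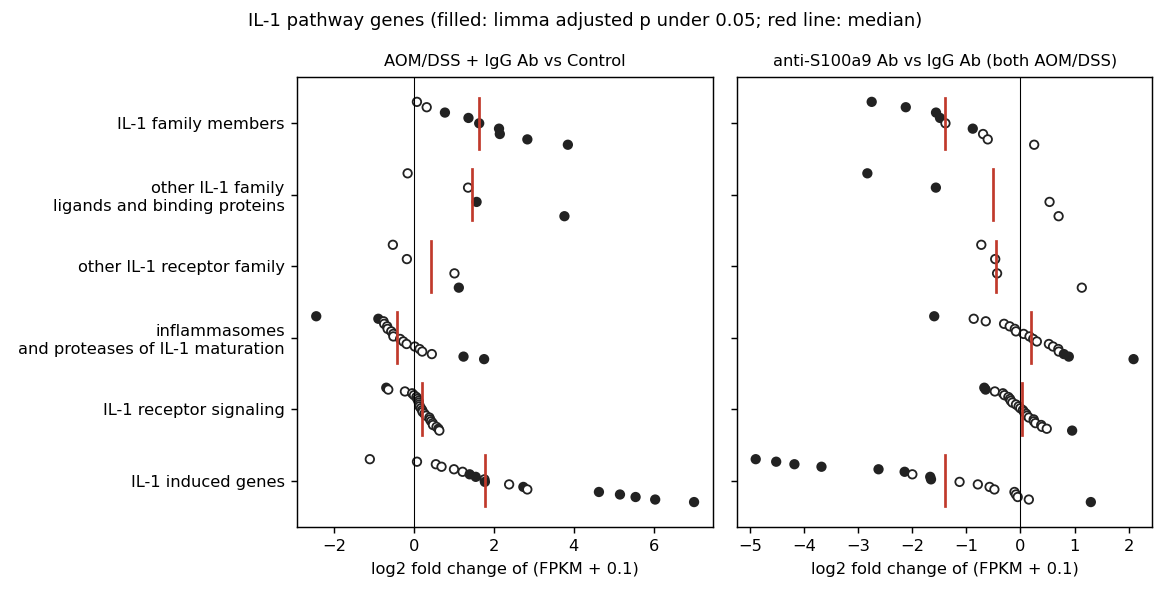
Log2 fold change of FPKM + 0.1 for each tested gene of the IL-1 family members and 5 pathway lists, for IgG Ab against Control (left) and anti-S100a9 Ab against IgG Ab (right); filled points have an adjusted p under 0.05 and red lines are list medians. The members and the IL-1 induced genes have medians of 1.63 and 1.77 on the left and -1.39 and -1.39 on the right, while those of the signaling list are 0.19 and 0.02.

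Markers of some cell types also differed between the groups, and what part these cells had in the results was not tested. For the counts below, 8.18% of all genes were called higher and 3.01% lower in IgG Ab against Control. With anti-S100a9 Ab against IgG Ab, 6.72% were called higher and 14.4% lower. Of 11 neutrophil markers, 7 were called higher in IgG Ab against Control and 6 lower with anti-S100a9 Ab. Among these, Mmp8 and Stfa2l1 would not have passed the filter without the IgG Ab mice, so both counts lean in part on the group in which they are high. S100a8, the first of the list, was measured at 0.261, 0.951 and 0.608 FPKM in the Control mice, at 35.7, 141 and 242 in the IgG Ab mice and at 5.33, 13.3 and 3.69 in the anti-S100a9 Ab mice. The summed neutrophil markers ranged from 90.9 to 121 FPKM in Control and from 102 to 181 in anti-S100a9 Ab mice, and were at 135, 462 and 709 in IgG Ab replicates 1, 2 and 3, the order in which Il1r2 stood (0.989, 1.46 and 4.98). Ly6g made up most of this sum in the Control mice (88.8 to 117 FPKM) and was not called, while Mpo stayed at or under 0.159 FPKM in all mice. In the IgG Ab mice S100a8 and S100a9 together made up most of the sum, with S100a9 at 63.1, 173 and 267 FPKM. The sum in these mice is thus largely a reading of these 2 genes. None of 10 macrophage markers was called, the first of them, Csf1r, ranged from 9.60 to 21.3 FPKM over the 9 mice, and their sum ranged from 745 to 1645 in Control, from 731 to 1295 in IgG Ab and from 1146 to 1434 in anti-S100a9 Ab mice.

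Mast cells, regulatory T cells and type 2 lymphocytes are known to carry ST2. None of 8 mast cell markers was called in IgG Ab against Control, with a median log2 fold change of 1.53. With anti-S100a9 Ab against IgG Ab only Kit was called, higher (adjusted p = 0.049), while every other marker had a lower mean and the median was -1.85. By the study's thresholds 3 markers were lower with anti-S100a9 Ab, beside 8.38% of all genes, and 1, Kit, was higher. The summed mast cell markers were at 159, 239 and 28.0 FPKM in IgG Ab replicates 1, 2 and 3 and ranged from 18.9 to 65.9 in Control and from 25.9 to 41.6 in anti-S100a9 Ab mice. Cpa3, the first of them, was at 13.6, 11.3 and 4.88 FPKM in the IgG Ab mice and ranged from 1.27 to 6.32 in Control. In IgG Ab replicate 3 the mast cell sum was within the Control range and Il1rl1 was at 8.36 FPKM. The sum depended strongly on Mcpt1 and Mcpt2, at 125 and 68.0 FPKM in IgG Ab replicate 2 and 4.58 and 3.20 in replicate 3. Which cells carried Il1rl1 was not tested. Of 7 tested markers of regulatory T cells and type 2 lymphocytes, none was called in IgG Ab against Control. Cd3e, the first of them, ranged from 1.05 to 7.67 FPKM over the 9 mice. Their sum ranged from 3.87 to 12.6 in Control, from 6.46 to 13.0 in IgG Ab and from 9.29 to 13.7 in anti-S100a9 Ab mice, and Ikzf2 alone was called with the antibody, higher (adjusted p = 0.049).

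Of 6 fibroblast markers, 3 were called higher with IgG Ab (Col1a1, Col1a2 and Pdgfra) and 2 lower with anti-S100a9 Ab (Col1a1 and Col1a2). Their sum was 480, 1388 and 1103 FPKM in IgG Ab replicates 1, 2 and 3 against 399 to 464 in Control and 526 to 654 in anti-S100a9 Ab mice, and Il33 was highest in the same IgG Ab replicate 2 but lowest in replicate 3. None of 6 endothelial markers was called in either comparison. Pecam1, the first of them, ranged from 5.85 to 19.4 FPKM over the 9 mice, and the sum was 19.0, 32.7 and 46.7 FPKM in the IgG Ab replicates. None of 5 smooth muscle markers was called against Control, and Myh11 was called higher with anti-S100a9 Ab (adjusted p = 0.033). Their sum was uneven within IgG Ab, at 354.5, 726.5 and 2426 FPKM in replicates 1, 2 and 3. It ranged from 1250 to 1989 in Control and from 1519 to 2787 in anti-S100a9 Ab mice, so the samples held differing amounts of muscle RNA. Of 8 tested squamous markers, 3 rose with IgG Ab (Krt14, Krt6a and Dsg3) and 4 fell with anti-S100a9 Ab. Dsg3 and Krt6a would not have passed the filter without the IgG Ab mice, so these counts lean in part on the group in which they are high. The squamous sum was 42.3, 9.94 and 26.8 FPKM in the IgG Ab replicates and at most 5.04 in the other mice, while the defining markers Krt5 and Trp63 were at or under 0.468 and 0.0223 FPKM in all mice. All 4 tested adipocyte markers were called lower in IgG Ab than in Control mice, with sums of 38.3 to 170 FPKM in Control and at most 15.0 in AOM/DSS mice. Adipoq, the first of them, ranged from 2.99 to 16.9 FPKM in Control and was listed at 0 in 4 of the 6 AOM/DSS mice. Adipoq and Plin1 would not have passed the filter without the Control mice, in which they are high. Of the 7 intestinal epithelial markers Krt18 alone was called, higher with IgG Ab (adjusted p = 0.026) and lower with anti-S100a9 Ab (adjusted p = 0.013).

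**Figure D5:**
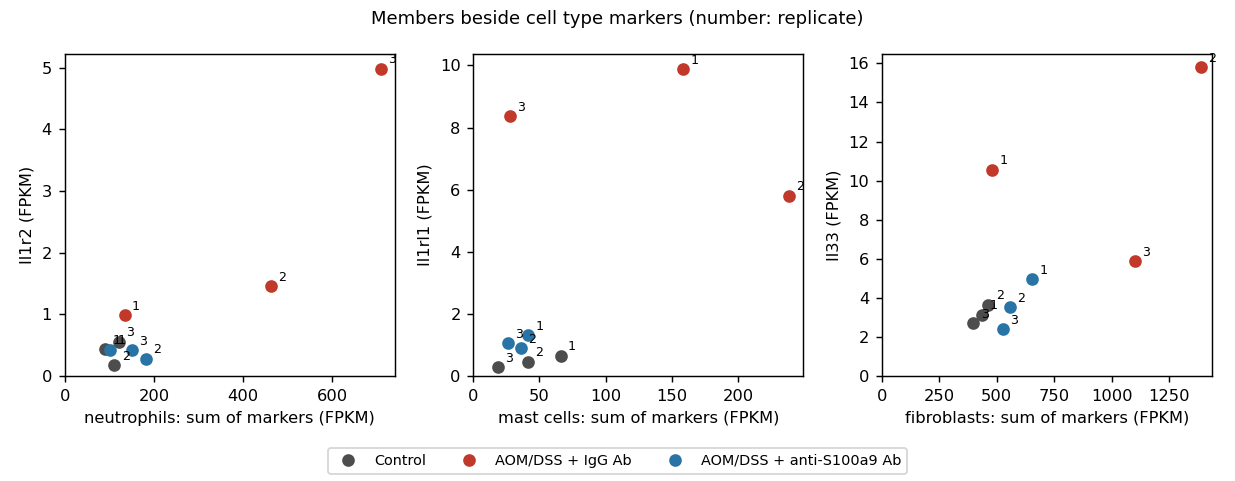
FPKM of Il1r2, Il1rl1 and Il33 in each mouse against the summed FPKM of the neutrophil, mast cell and fibroblast markers; colors give the group and numbers the replicate. Il1r2 is highest in IgG Ab replicate 3, where the neutrophil sum is 709 FPKM, most of it S100a8 and S100a9. In that mouse Il1rl1 is at 8.36 FPKM and the mast cell sum is 28.0 FPKM.

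The genes whose pattern over the 9 mice was most like that of a member were found among 13073 genes with a mean of at least 1 FPKM in a group, by the mean absolute difference of log2 values centred on each gene's own mean. The measure is a description and is small for any gene that varies little. For Il1rl1 the nearest were Lama1 (0.250), a laminin chain, Il1f9 (0.284), the IL-36γ gene, and Mmp9 (0.284), a gelatinase. Il1b was nearest to Arl4c (0.229), Socs3 (0.244), a feedback inhibitor of cytokine signaling, and Spats2 (0.290). Il1a was nearest to Adam8 (0.353), Itgb8 (0.364) and Cp (0.369), and at 0.399 from Il1b, the member most like it. Il1r2 was nearest to Alpl (0.157), which encodes tissue-nonspecific alkaline phosphatase, Angpt4 (0.268) and Basp1 (0.278). The nearest to Il33 were Sox18 (0.224), an endothelial transcription factor, Nr4a2 (0.272) and Krt84 (0.274). Il1r1 was nearest to Ildr2 (0.137), Kctd5 (0.169) and Acsl4 (0.175), and Il1rn to Tmem203 (0.0821), Hddc2 (0.0854) and Acot1 (0.0869). Il18 was nearest to Gm28040 (0.158), Cox5b (0.168) and Igfbp3 (0.186), and Il1rap to Cdc37l1 (0.0480), Tcf20 (0.0571) and Ankrd17 (0.0615).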

How the data were processed

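Colon RNA-seq values of 3 mice in each of 3 groups were used. The deposited table of each mouse lists 21544 gene symbols with an expression value that the authors had normalized, taken here to be FPKM. That unit is named in no source used here and rests on the decimal form and the sums of the values (308377 to 408811). The submitters' processing notes name TopHat, Cufflinks, HTSeq, DESeq and GRCm38, while the annotation is not given in the sources used here. The study tested counts with DESeq, which the FPKM values do not allow.

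Rows that repeat a symbol (46) were summed, which left 21498 symbols. No other scaling was applied. Values entered limma 3.58.1 (R 4.3.3) as log2(FPKM + 0.1), keeping the 15278 genes that reached 0.1 FPKM in 3 or more samples. The model took all 9 samples, with empirical Bayes moderation with an intensity trend and Benjamini-Hochberg adjustment over all genes tested (8.87 degrees of freedom). The labels number the mice as biological replicates. Ratios were compared with two-sided exact permutation tests, with Benjamini-Hochberg adjustment over the 12 comparisons. Depth is unknown, so no counting error was computed, and precision comes from the 3 mice per group. The scripts were tested on simulated data.

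The members and the gene lists were chosen with earlier results of these data known. Named genes were all members, all other family genes, up to 4 called genes of each other pathway list with the largest change, the first marker of each cell type and the 3 nearest genes of each member. Other genes are named where a count was 5 or fewer, where they define a cell type or weigh heavily in a marker sum. These were chosen after their values were seen. Alternatives covered the pseudocount, filter, scaling, samples in the fit, replicate block, intensity trend, sample weights, call thresholds and leaving out each mouse. Start regions are from RefSeq (GRCm38.p6, 9 of 9 members matched) and positions from GENCODE M21. Tables and plots were made in Python 3.11.15 (numpy 2.4.6, pandas 2.3.3, matplotlib 3.10.9).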

Additional observations from a re-analysis of the deposited data

How the results depend on the processing

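In IgG Ab against Control, 7 members were called, between 5 and 7 under all other settings but the fit of the 2 groups alone, which called 4, and between 3 and 7 without a mouse (3 without Control replicate 2, 4 without Control replicate 1). The share of all genes called fell too, from 11.2% to 4.18% with the 2 groups alone. It was 3.88% without Control replicate 2 and 4.76% without Control replicate 1. For anti-S100a9 Ab against IgG Ab, 5 were called, 5 or 6 under the other settings and between 1 and 6 without a mouse: 1 without anti-S100a9 Ab replicate 2, 2 without replicate 1, and 3 without replicate 3 or without IgG Ab replicate 1 or 3. Here the share of all genes called fell from 21.1% to 3.39%, 5.2% and 7.33% without anti-S100a9 Ab replicate 2, 1 and 3. Without IgG Ab replicate 1 or 3 it was 10.4% and 10%. For anti-S100a9 Ab against Control the count was 0 except with the study's thresholds (2) and with sample weights (3, where 16.9% of all genes were called against 0.0131%). A fit without a mouse has fewer samples, and otherwise the cause was not tested. Depth is unknown, so no limit for low genes such as Il1a and Il1r2 was computed.

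Signs turned only for differences that were not called. Il18 in IgG Ab against Control went from 0.07 to -0.035 with median-of-ratios scaling, -0.0043 with quantile normalization and -0.17 with sample weights, and ranged from -0.23 to 0.27 without a mouse. Il1rap went to -0.014 with sample weights. In anti-S100a9 Ab against Control, Il1r2 went from 0.03 to -0.0086 with a pseudocount of 1 and -0.14 with quantile normalization and ranged from -0.34 to 0.28 without a mouse, and Il33 ranged from -0.11 to 0.40. The ratio of Il1rn to Il1a in anti-S100a9 Ab against IgG Ab went from 0.51 to -0.050 with a pseudocount of 1, and that of Il1r2 to Il1r1 in IgG Ab against Control, 0.79, ranged from -0.016 (without IgG Ab replicate 3) to 1.24 without a mouse.

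Scaling moved the median of all genes in IgG Ab against Control by -0.103 (median-of-ratios) and -0.124 (quantile), and the share of calls that were higher from 73.1% to 65.1% and 60.0%. For anti-S100a9 Ab against IgG Ab that share went from 31.9% to 41.2% with median-of-ratios scaling and 44.9% with quantile normalization. The replicate numbers were not shown to pair the mice: of 9 pairs with the same number, 5 had correlated deviations with r over 0.1 (range -0.187 to 0.249). With the replicate block, 7, 6 and 0 members were called in the 3 comparisons, where Il1a was added for anti-S100a9 Ab against IgG Ab (adjusted p = 0.037).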
